A study of Mus musculus with 18 samples.

Results

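LSK cells that had spent 6 days in culture were compared with LSK cells processed straight from the marrow of control mice. LSK cells are the Lineage-negative, cKit+, Sca1+ cells of mouse bone marrow, a gate that holds the hematopoietic stem cells and the multipotent progenitors. The 6 libraries compared, of 18 in the series, were the 3 control libraries of the cultured group without DL1 and the 3 control libraries of freshly sorted cells. All mice were C57Bl/6. Their ages and sexes are not stated in the sources used here, and the values of sex-linked genes are given below with Xist. Each cultured library came from 200 LSK cells of 1 mouse, grown with stem cell factor (mSCF), Flt3 ligand (hFlt3L), hIL-6 and hIL-11. The grown cells were sorted for LSK a second time before sequencing. The purity of this second sort was not tested. Each fresh library came from a pool of LSK cells of 3 mice. The same contrast was also read in 3 cultured and 3 fresh libraries of irradiated mice, which had received 2.5 Gy from a Cs-137 source and had recovered for at least 9 weeks. In the labels of all control samples the source field names IRp cells, the term used there for irradiated mice, while the titles and the condition field say control or normal. Titles and conditions were followed.

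In the marrow, stem cells divide rarely, and their identity is held by a small set of transcription factors and surface receptors that are lost as progenitors commit to the myeloid, lymphoid, erythroid or megakaryocytic lineages. Stem cell factor acts through the receptor Kit, Flt3 ligand through Flt3, and IL-6 and IL-11 through receptors that share the signalling chain Il6st (gp130). A culture with these cytokines makes LSK cells proliferate outside their niche.

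Levels are given in FPKM (fragments per kilobase of transcript and per sequenced depth), as the authors deposited them in 1 table for cultured and 1 for fresh libraries. Names of ribosomal and small RNAs were dropped and the 6 libraries were put on 1 scale by median ratios. With 12614 names at a mean of at least 1 scaled FPKM, a gene is called higher or lower in culture where the lowest value of the higher group is at least 2 times the highest value of the other, on scaled FPKM + 1. Differences are of group means of log2(scaled FPKM + 1), cultured minus fresh, with their standard error over 3 and 3 libraries. This scale understates the change of genes at low levels. Because the tables were normalized separately and each holds only 1 of the groups, no p-value is given for any difference between cultured and fresh cells. Culture, second sort, pooling, library preparation and table cannot be told apart here. In sorted cell pools, fewer cells of a type and less RNA per cell cannot be told apart either.

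By this rule 1730 names were higher in cultured cells (13.7%) and 1433 were lower (11.4%), or 25.1% of all names tested. The counts called in the gene lists below are to be read beside these shares. The ranks of these genes within each library, which need no scaling between the tables, separated the groups for all 1730 and all 1433. These names were chosen for a gap between the groups in the same values, which leaves ranks little room to overlap. The ranks are therefore no independent check of the calls. The direction split depends on the scaling: with the upper quartile in place of median ratios, 1077 names were higher and 2121 lower, and with equal totals 1428 and 1611. The median difference of all tested names was 0.13 with median ratios and -0.18 with the upper quartile. Without any size limit, the groups did not overlap for 5948 names higher in culture (47.2%) and 4721 lower (37.4%). At a gap of at least 8 times, 117 names were higher and 104 lower, and at 32 times 9 and 13. Inside a table the same rule called far fewer names: 0.0676% of 11827 for irradiated against control cultures, and 0.0392% of 12741 for irradiated against control fresh cells (0.0314% higher and 0.00785% lower). Spearman correlations across the tested names were between 0.995 and 0.997 among the cultured libraries, between 0.985 and 0.990 among the fresh ones, and between 0.764 and 0.794 for pairs of a cultured and a fresh library.

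**Figure D1:**
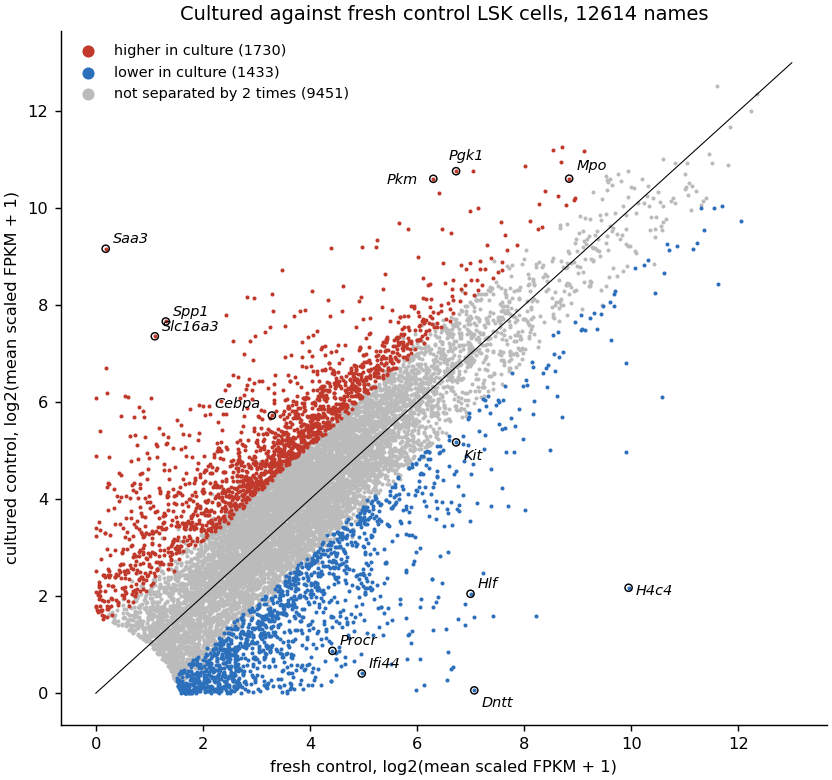
Mean level of each of the 12614 tested names, with cultured cells on the vertical and fresh cells on the horizontal axis, both as log2 of the mean scaled FPKM + 1. Red points are the 1730 names higher in culture, blue points the 1433 lower ones, grey points the rest, and the line marks equal levels.

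The fresh libraries differed from the cultured ones in several RNA classes that carry no poly(A) tail. Ribosomal and small RNA names held between 1.55 and 1.89% of all FPKM in cultured libraries, against between 33.9 and 34.7% in fresh libraries. The 28S ribosomal RNA (listed as LOC236598) averaged 943 scaled FPKM in cultured and 89869 in fresh cells, and the 7SK RNA (RN7SK), a small nuclear RNA that holds back transcription elongation, 4.89 and 648. Relative depth was read from the most common ratio of cultured replicate 1 to each library, over names below 1 FPKM in both. Set to 1 for cultured replicate 1, it was 0.756 and 0.930 in the other cultured libraries. In the fresh libraries it was between 0.443 and 0.688. These had between 3118 and 3201 such names. Between 145 and 153 of them lay at that ratio, against between 86 and 92 at the next, so the fresh depths are rough. The median transcript length of the genes called higher was 2851 bases and that of the genes called lower 3159 bases. Over all tested names with a length it was 3207 bases. A length was found for 95.2% of the genes called higher, 80.7% of those called lower and 92.1% of all tested names.

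Glycolysis, the conversion of glucose to pyruvate and lactate, was the group with the highest median difference. Of 25 tested members, 21 were higher in cultured cells and 1 was lower, with a median difference of 2.26, against 0.13 over all tested names. The members summed to between 2.45 and 2.48% of scaled FPKM in cultured libraries, against between 0.330 and 0.363% in fresh libraries. The hypoxia response list holds targets of the oxygen-regulated factor Hif1 and members of the Hif family. Of its tested members, 14 of 19 were higher and 1 was lower, with a median difference of 1.92. To show what the promoters of these genes hold, the 250 bases before the annotated start (RefSeq, GRCm38.p6, 5′ to 3′ on the gene's strand) are printed for 3 genes. They were picked by name among genes with large differences, are not the 3 highest, and do not stand for their lists. Capitals mark ACGTG on either strand, the core of the element that Hif1 binds. The windows are chr11:120948817-120949066 (+ strand) for Slc16a3, chr7:138909507-138909756 (- strand) for Bnip3 and chrX:106186850-106187099 (+ strand) for Pgk1.
Slc16a3: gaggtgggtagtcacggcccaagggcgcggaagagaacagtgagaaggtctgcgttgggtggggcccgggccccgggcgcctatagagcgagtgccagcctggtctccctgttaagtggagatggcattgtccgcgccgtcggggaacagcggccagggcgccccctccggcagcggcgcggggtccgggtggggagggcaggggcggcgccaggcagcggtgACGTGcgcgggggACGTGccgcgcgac
Bnip3: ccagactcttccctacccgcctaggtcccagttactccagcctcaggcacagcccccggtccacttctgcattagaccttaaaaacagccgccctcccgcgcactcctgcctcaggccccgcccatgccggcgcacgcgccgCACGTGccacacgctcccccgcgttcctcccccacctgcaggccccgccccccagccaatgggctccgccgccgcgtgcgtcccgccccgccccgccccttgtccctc
Pgk1: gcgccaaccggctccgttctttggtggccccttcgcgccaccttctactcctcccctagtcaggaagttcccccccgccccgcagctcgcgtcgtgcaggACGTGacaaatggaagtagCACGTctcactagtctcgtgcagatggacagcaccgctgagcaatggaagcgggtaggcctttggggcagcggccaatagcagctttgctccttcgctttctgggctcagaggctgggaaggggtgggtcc
Each window holds 2 matches, and in Bnip3 they are the 2 strands of one CACGTG, which is also the E-box. Of the tested members with a listed promoter, 10 of 24 glycolysis genes (41.7%) and 11 of 17 hypoxia genes (64.7%) held ACGTG in this window, against 22.5% of the 9110 tested names with a listed promoter and 16.6% of all 27025 promoters. Among called members with a listed promoter, 9 of 22 glycolysis and 10 of 15 hypoxia genes held it. The hypoxia genes were listed largely as Hif1 targets, so a high share of its motif is no finding about these data. A match describes the letters and does not show that a factor bound there.

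Slc16a3 (MCT4), the carrier that exports lactate, had 155, 155 and 179 scaled FPKM in the cultured libraries, against 1.11, 1.21 and 1.12 in the fresh libraries. Pgk1, which makes ATP from bisphosphoglycerate, had 1744, 1733 and 1738 in cultured and 106, 109 and 99.9 in fresh cells. Both genes were at nearly the same level within each group and far apart between the groups, with differences of 6.25 ± 0.07 for Slc16a3 and 4.04 ± 0.04 for Pgk1. Pkm, the pyruvate kinase of the last step, was at 1520, 1525 and 1631 in cultured cells and at 75.7, 78.0 and 80.3 in fresh cells. Tpi1 differed by 4.11 ± 0.06, Eno1 by 3.92 ± 0.04 and Aldoa by 3.72 ± 0.05. For each of these enzymes the lowest cultured library was above every fresh library by more than the rule of 2 times asks.

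The only glycolysis member lower in culture was Ldhb, the lactate dehydrogenase subunit that favours the return of lactate to pyruvate, named here after its values were seen. It had 2.51, 2.29 and 2.32 scaled FPKM in cultured cells, against 36.4, 38.0 and 38.2 in fresh cells. Ldha, the subunit that favours lactate, was at 1807, 1909 and 1901 in cultured cells and at 290, 236 and 247 in fresh cells. The pair therefore lay in opposite directions, with differences of -3.51 ± 0.04 for Ldhb and 2.86 ± 0.09 for Ldha, which was also chosen after its values were seen.

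Among the hypoxia genes, Bnip3, a mitochondrial receptor for mitophagy, had 245, 226 and 231 scaled FPKM in cultured and 9.05, 8.27 and 9.25 in fresh cells. Egln3 (PHD3), one of the oxygen sensors that mark Hif1 for degradation, had 188, 187 and 187 in cultured and 10.1, 7.47 and 7.91 in fresh cells. Slc2a1 (GLUT1), the glucose transporter, had 82.4, 77.3 and 90.4 in cultured and 7.25, 5.60 and 7.49 in fresh cells. None of these groups overlapped. Ero1a, which makes disulphide bonds in the endoplasmic reticulum, differed by 3.99 ± 0.07, Ankrd37 by 3.61 ± 0.26 and P4ha1, a collagen prolyl hydroxylase subunit, by 3.06 ± 0.02. The member lower in culture was Hif3a, an inhibitory member of the family, at a mean of 1.58 in cultured and 7.16 in fresh cells.

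**Figure D2:**
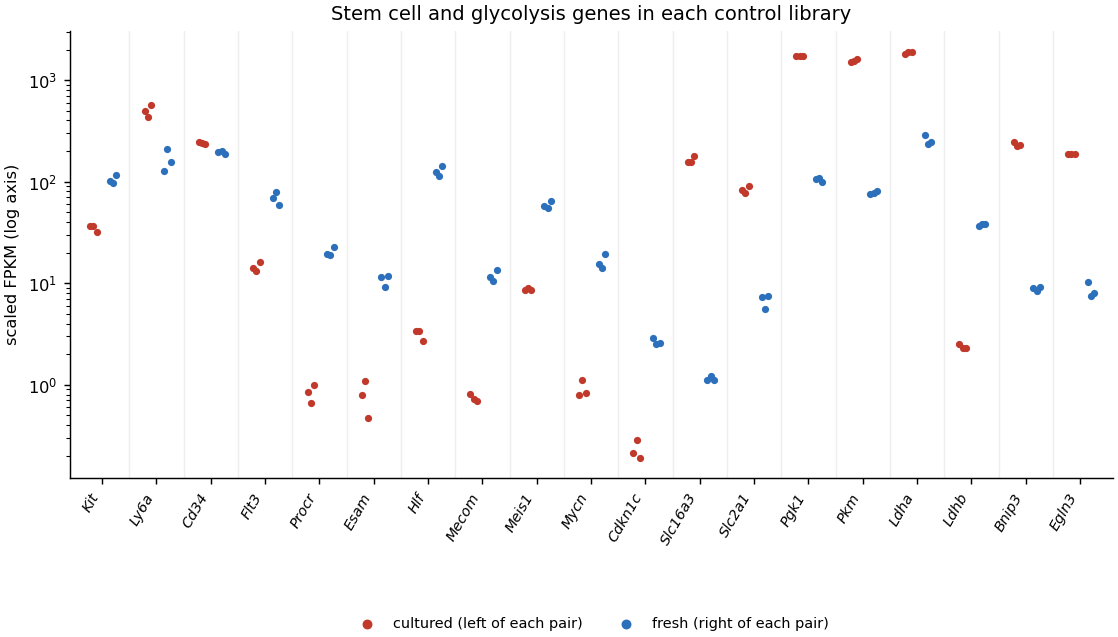
Scaled FPKM on a log axis for stem cell, glycolysis and hypoxia genes, 1 point a library, with the 3 cultured libraries in red on the left of each pair and the 3 fresh libraries in blue on the right. Pgk1 lies between 1733 and 1744 in cultured cells and between 99.9 and 109 in fresh cells, while Hlf lies between 2.71 and 3.37 in cultured cells and between 114 and 143 in fresh cells.

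Respiration did not move with glycolysis to the same extent. In the oxidative phosphorylation list 5 of 30 were higher and 0 lower, against 13.7% and 11.4% over all tested names. The list had a median of 0.45, and 3 were higher under equal totals, the upper quartile or quantile normalization. Uqcrc1, a core subunit of complex III, differed by 1.76 ± 0.04, and Atp5a1, the alpha subunit of the ATP synthase, by 1.58 ± 0.04. The pentose phosphate enzymes of the antioxidant list were among its members with the highest differences: Pgd had 203, 210 and 212 scaled FPKM in cultured and 28.7, 33.0 and 31.1 in fresh cells, and Taldo1 differed by 2.05 ± 0.09.

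The stem cell programme was lower in culture, while Kit and Ly6a, the 2 sort markers of the gate, lay in opposite directions. Of 26 stem cell surface genes, 14 were lower and 2 higher, with a median of -1.33, and 9 were lower with a pseudocount of 5 and 8 at a mean of at least 5. Of 40 stem cell transcription factors, 18 were lower and 0 higher, with a median of -1.22. The gate itself was read first. Kit, the receptor of stem cell factor and a sort marker, had 36.7, 36.8 and 31.8 scaled FPKM in cultured and 101, 97.9 and 117 in fresh cells, a difference of -1.56 ± 0.10. Ly6a, which encodes Sca1, had 499, 434 and 562 in cultured and 128, 211 and 155 in fresh cells, a difference of 1.62 ± 0.24. The call for Ly6a is lost under equal totals, the upper quartile and quantile normalization, and its direction held under each. Both sort markers were therefore expressed in all 6 libraries. Cd34, carried by multipotent progenitors, averaged 240 ± 4.75 in cultured and 194 ± 6.92 in fresh cells (SD, n = 3 each) and was not called.

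Procr (EPCR), a marker of the most primitive stem cells, had 0.838, 0.652 and 1.003 scaled FPKM in cultured and 19.2, 19.1 and 22.9 in fresh cells. Emcn, a sialoprotein of stem and endothelial cells, differed by -3.85 ± 0.20, Mmrn1 by -3.51 ± 0.27 and Robo4, a Slit receptor that helps to anchor stem cells, by -3.02 ± 0.10. Cd27, a tumour necrosis factor receptor of multipotent progenitors, was at 18.6, 17.2 and 17.9 in cultured and at 186, 199 and 192 in fresh cells. Slamf1 (CD150) was at a mean of 0.927 in cultured and 3.00 in fresh cells without reaching the rule, and Cd48 at 48.0 and 53.5 was not called.

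Among the transcription factors, Hlf, a bZIP factor that marks stem cells, had 3.35, 3.37 and 2.71 scaled FPKM in cultured and 124, 114 and 143 in fresh cells. Meis1, the Hox cofactor that sustains stem cell quiescence, had 8.59, 8.86 and 8.50 in cultured and 57.3, 54.6 and 65.0 in fresh cells. Mecom (Evi1), needed for long-term stem cells, had 0.803, 0.727 and 0.685 in cultured and 11.5, 10.6 and 13.5 in fresh cells. None of these groups overlapped, and the differences were -4.95 ± 0.12, -2.63 ± 0.08 and -2.89 ± 0.10. Nfia differed by -3.10 ± 0.11, the RNA-binding protein Msi2 by -3.03 ± 0.10 and Mllt3, a guardian of human stem cell self-renewal, by -2.98 ± 0.15. Other members of the list were not called, among them Hoxa9, at means of 9.24 in cultured and 9.73 in fresh cells, and Lmo2, at 173 and 276, both chosen after their values were seen. Mycn, a partner of Myc in stem cells, differed by -3.17 ± 0.14. Myc itself was at 153, 161 and 145 in cultured and at 235, 215 and 224 in fresh cells, which did not overlap but lay less than 2 times apart.

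Genes linked with dormancy followed the same direction in part. Of 10 tested imprinted growth genes, 4 were lower and 0 higher, and 0 were lower with a pseudocount of 5, since their levels are low. Cdkn1c (p57), the cyclin-dependent kinase inhibitor of quiescent stem cells, had 0.213, 0.284 and 0.189 scaled FPKM in cultured and 2.91, 2.52 and 2.57 in fresh cells. Phlda2 differed by -2.30 ± 0.14 and Igf2r, the receptor that clears Igf2, by -2.04 ± 0.11. Among the FoxO and autophagy genes 5 of 24 were lower and 3 higher, and 8 were lower with the upper quartile. Foxo3, which protects stem cells from oxidative stress, had 12.7, 12.4 and 11.9 in cultured and 53.9, 57.7 and 58.2 in fresh cells. The Gimap GTPases, small GTPases of lymphocytes and stem cells, were lower in 7 of 8, and in 3 with a pseudocount of 5. Gimap1 had 5.93, 6.70 and 5.68 in cultured and 85.3, 87.8 and 82.5 in fresh cells.

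The cell cycle lists had lower medians than the glycolysis list. In the DNA replication list 8 of 38 were higher and 0 lower, with a median of 0.72, and only 4 were higher with the upper quartile and 3 with quantile normalization. In the mitosis and spindle list 13 of 37 were higher and 0 lower, with a median of 0.93, and 8 were higher with either of these scalings. Plk1, the kinase that drives entry into mitosis, had 63.4, 63.7 and 63.6 scaled FPKM in cultured and 12.6, 15.4 and 9.11 in fresh cells. Ccnb1, the mitotic cyclin, had 64.5, 59.2 and 59.6 in cultured and 11.8, 14.4 and 11.1 in fresh cells. The groups were clearly apart for both, whereas Mki67, the proliferation antigen, averaged 79.6 ± 7.37 in cultured and 93.6 ± 1.94 in fresh cells (SD, n = 3 each) and lay slightly lower in culture without a call.

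Mitotic genes are often controlled through a CCAAT box together with a cell cycle homology region, and the promoters of the 2 called mitosis genes with the highest differences that hold both are shown as examples. Capitals mark CCAAT and TTTGAA on either strand, and the windows are chr4:118437344-118437593 (- strand) for Cdc20, the activator of the anaphase-promoting complex, and chr15:102296043-102296292 (+ strand) for Espl1 (separase), which cuts cohesin.
Cdc20: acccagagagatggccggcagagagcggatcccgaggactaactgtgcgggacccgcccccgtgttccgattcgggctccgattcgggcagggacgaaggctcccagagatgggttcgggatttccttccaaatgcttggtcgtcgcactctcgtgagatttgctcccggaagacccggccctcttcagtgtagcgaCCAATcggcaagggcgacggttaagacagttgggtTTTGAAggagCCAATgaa
Espl1: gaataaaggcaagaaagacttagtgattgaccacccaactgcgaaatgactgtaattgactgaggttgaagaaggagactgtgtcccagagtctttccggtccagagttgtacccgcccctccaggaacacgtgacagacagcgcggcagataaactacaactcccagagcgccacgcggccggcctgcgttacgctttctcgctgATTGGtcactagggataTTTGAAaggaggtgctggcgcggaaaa
Cdc20 had 82.5, 86.9 and 83.4 scaled FPKM in cultured and 21.1, 17.7 and 18.1 in fresh cells, and Espl1 averaged 17.7 and 5.24. CCAAT was held by 23 of 31 tested mitosis genes with a listed promoter (74.2%), against 37.5% of the tested names with one and 34.5% of all promoters. TTTGAA was held by 10 of 31 (32.3%), against 11.1% of those tested names and 16.3% of all promoters. The E-box CACGTG, through which Myc binds, was held by 2 of 28 ribosome biogenesis genes (7.14%), against 8.64% of those tested names and 6.05% of all promoters.

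Regulators of G1 were mixed, with 5 of 25 higher and 2 lower, and with 9 higher when fresh replicate 1 was left out and 3 with the upper quartile. Cdkn1a (p21), the inhibitor induced by p53 and by differentiation, had 51.1, 43.6 and 59.7 scaled FPKM in cultured and 4.99, 6.38 and 5.96 in fresh cells. Ccne1, the cyclin of S phase entry, had 19.5, 21.96 and 21.3 in cultured and 3.67, 1.95 and 3.00 in fresh cells. Cdk6, whose level paces stem cell exit from quiescence, was lower, at 35.3, 37.2 and 28.7 in cultured and 130, 121 and 116 in fresh cells. In the p53 list 8 of 27 were higher and 1 lower, and 4 were higher with a pseudocount of 5. Pmaip1 (Noxa), a cell death factor of the Bcl2 family, had 34.8, 32.7 and 34.3 in cultured and 0.825, 0.713 and 0.568 in fresh cells.

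Replication-dependent histone genes, whose messages end in a stem-loop and carry no poly(A) tail, lay the other way from the cell cycle genes. Of 61 tested histone names, 59 were lower and 0 higher in culture, with a median of -3.54. They summed to between 138 and 151 scaled FPKM in cultured libraries, against between 3793 and 4587 in fresh libraries. H4c4 had 3.46, 3.18 and 3.90 in cultured and 893, 1125 and 951 in fresh cells, and the linker histone H1f5 had 0.689, 0.761 and 0.923 in cultured and 98.4, 97.4 and 89.3 in fresh cells. Of the 12 called genes with the lowest differences, 7 were histone genes: besides these, H2bc14, H4c14, H2bc13, H2ac15 and H2bc7 differed by between -6.64 and -5.47. Histone genes of 1 class are near-identical, so values of single members are uncertain. The variant histones, whose messages are polyadenylated, did not follow. H2afz averaged 339 in cultured and 441 in fresh cells, H3f3a 282 and 218, and H3f3b 429 and 154. Several other RNAs without a tail were lower too: TERC, the telomerase RNA, averaged 0.184 in cultured and 13.1 in fresh cells, RMRP 1.44 and 17.2, and RPPH1, the RNA of RNase P, 6.92 and 43.1. Small nucleolar RNA names, in contrast, summed to 602, 696 and 686 FPKM as deposited in cultured and 899, 657 and 660 in fresh libraries. Names of U small nuclear RNAs summed to 38.8, 47.8 and 44.8 in cultured and 103, 58.2 and 37.1 in fresh libraries, and for both classes the groups overlapped. Names of microRNA precursors did not overlap, with sums of 258, 266 and 321 in cultured and 3249, 3466 and 3325 in fresh libraries. The part of this difference in RNA classes in other results was not tested.

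Among long nuclear RNAs the directions differed. MALAT1 averaged 30.3 scaled FPKM in cultured and 951 in fresh cells, and Xist, the RNA that coats the inactive X chromosome, had 75.4, 78.6 and 54.0 in cultured and 397, 361 and 417 in fresh cells. NEAT1, the scaffold of paraspeckles, lay the other way, at 139, 121 and 138 in cultured and 16.1, 12.8 and 15.3 in fresh cells. Beside the Xist values, the Y-linked gene Kdm5d was at 0 in all 6 libraries. Uty, Ddx3y and Eif2s3y, also Y-linked, were at most 0.0530 in any of them, the pattern of female cells. Outside the nuclear RNAs, the name Lars2, the mitochondrial leucyl-tRNA synthetase gene, averaged 344 in cultured and 3165 in fresh cells. Whether these values reflect its messenger RNA was not tested. MALAT1, NEAT1, Lars2 and the histone variants were chosen after their values were seen.

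**Figure D3:**
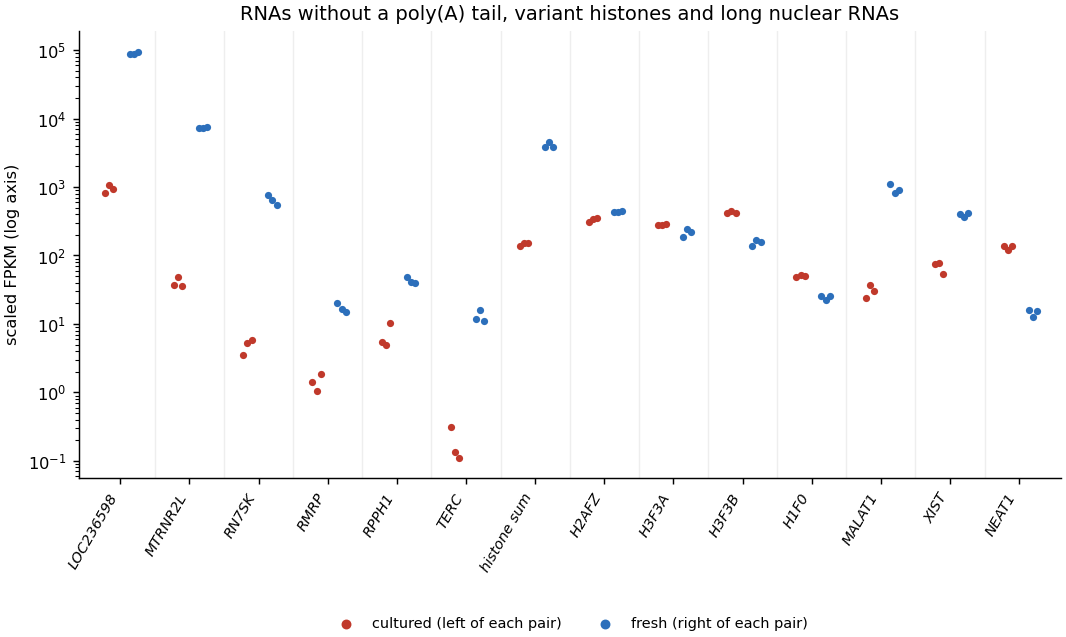
Scaled FPKM on a log axis for RNAs without a poly(A) tail, the summed replication-dependent histones, 4 polyadenylated histone variants and 3 long nuclear RNAs, 1 point a library, cultured in red on the left and fresh in blue on the right. The histone sum lies between 138 and 151 in cultured and between 3793 and 4587 in fresh libraries, while H2AFZ differs by less than 2 times.

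Myeloid genes were higher in culture although the cells were sorted as Lineage-negative. Of 34 monocyte and macrophage genes, 23 were higher and 3 lower, with a median of 2.08. Of 26 genes of azurophil granules and early granulocytes, 17 were higher and 1 lower, with a median of 1.85. The monocyte list summed to between 0.382 and 0.497% of scaled FPKM in cultured libraries, against between 0.0536 and 0.0850% in fresh libraries, and the azurophil list to between 1.69 and 1.80%, against between 0.369 and 0.524%. The 3 monocyte genes that were lower, named after their values were seen, were Fabp4, Vcam1 and Cd163, the last 2 carried by tissue macrophages.

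Mpo, the myeloperoxidase of azurophil granules, had 1656, 1694 and 1337 scaled FPKM in cultured and 384, 652 and 338 in fresh cells. Elane, neutrophil elastase, had 521, 542 and 474 in cultured and 51.0, 94.2 and 46.9 in fresh cells. Ctsg, cathepsin G, had 779, 839 and 679 in cultured and 51.4, 80.2 and 36.9 in fresh cells. The groups did not overlap in any of them, and fresh replicate 2 was the highest of the fresh libraries in each. The call for Mpo, but not its direction, is lost under equal totals and the upper quartile. Ms4a3, which marks granulocyte and monocyte progenitors, differed by 5.32 ± 0.34, Prtn3 by 2.95 ± 0.12 and Igsf6 by 3.22 ± 0.14. Messages for these granule proteins were also present in fresh LSK cells, at lower levels.

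Csf1r, the receptor of the macrophage growth factor, had 154, 122 and 182 scaled FPKM in cultured and 4.71, 9.73 and 4.78 in fresh cells. Ccr2, the chemokine receptor with which monocytes leave the marrow, had 303, 256 and 288 in cultured and 5.43, 10.8 and 4.01 in fresh cells. F13a1, a clotting factor subunit of monocytes, had 306, 270 and 283 in cultured and 4.77, 10.5 and 3.09 in fresh cells. The groups did not overlap, and fresh replicate 2 was again the highest of its group. Fcgr3, a low-affinity antibody receptor, differed by 4.77 ± 0.34, Spp1 (osteopontin) by 6.38 ± 0.25 and Gpnmb, a lysosomal glycoprotein of macrophages, by 5.96 ± 0.23. The gene with the highest difference of all was Saa3, an acute phase protein of macrophages, at 511, 483 and 725 in cultured and 0.103, 0.167 and 0.139 in fresh cells.

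The other named genes among the 12 with the highest differences were Clec4n (Dectin-2, a lectin for fungal sugars), at means of 103 scaled FPKM in cultured and 0.143 in fresh cells, Scin (an actin-severing protein) at 68.8 and 0.453, Emilin2 at 222 and 4.38, the secreted hormone Stc2 at 41.7 and 0.0532, and the dipeptidase Dpep2 at 51.9 and 0.384. Names listed at 0 in all 3 fresh libraries numbered 6. The highest of them in cultured cells were Nos2, the inducible nitric oxide synthase, at 9.71, 7.64 and 11.5, and the acute phase protein Saa1, at 4.17, 4.24 and 5.84. Fcrls was at 2.97, 1.98 and 4.73. Names at 0 in all 3 cultured libraries numbered 12, led by Pou2af1, a B cell coactivator, at 5.50, 18.1 and 8.92 in fresh cells, Lhcgr, the gonadotropin receptor, at 4.11, 4.16 and 5.72, and Ptgds, a prostaglandin D synthase, at 3.04, 2.13 and 2.75.

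The C/EBP factors that drive granulocyte and monocyte fate were higher in 4 of 9 genes of the family list, and 1 was lower. Cebpa had 50.6, 55.7 and 49.5 scaled FPKM in cultured and 7.85, 12.9 and 5.61 in fresh cells. Cebpe, the factor of late granulocytes, had 13.2, 13.4 and 12.99 in cultured and 1.01, 1.09 and 0.960 in fresh cells. Cebpb and Cebpd, which respond to inflammatory cytokines, differed by 2.77 ± 0.18 and 2.51 ± 0.11. The lower member was Trib2, a pseudokinase that degrades Cebpa, at means of 0.182 in cultured and 3.16 in fresh cells. The median over the list was 0.06 and ran between -0.17 and 0.40 over the scalings tried, so that it has no fixed direction.

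Genes of mature neutrophils lay the other way from those of early granulocytes. In the late neutrophil granule list 8 of 15 were lower and 3 higher, with a median of -2.02, and 4 were lower with a pseudocount of 5. Retnlg had 0.256, 0.0847 and 0.274 scaled FPKM in cultured and 51.1, 113 and 114 in fresh cells. Camp, the antimicrobial cathelicidin of specific granules, had 3.90, 3.01 and 6.90 in cultured and 91.3, 183 and 175 in fresh cells. The surface marker Ly6g, which defines neutrophils, was at 0.0501, 0.672 and 0.430 in cultured and at 4.19, 14.4 and 12.3 in fresh cells. In all 3 genes the lowest fresh library was replicate 1. The 3 higher members were Mmp8, a neutrophil collagenase at 328, 267 and 342 in cultured and 8.55, 20.9 and 16.8 in fresh cells, Itgam (CD11b) and Wfdc21, the last chosen after its values were seen. The list summed to between 0.249 and 0.274% of scaled FPKM in cultured and between 0.444 and 0.843% in fresh libraries. Its part in other results was not tested.

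Lysosomal genes overlap in part with the macrophage list and were higher as well, with 14 of 27 higher and 0 lower and a median of 1.42. Psap, the precursor of the saposins, had 744, 635 and 889 scaled FPKM in cultured and 76.6, 106 and 81.0 in fresh cells, and the protease Ctss had 316, 253 and 395 in cultured and 31.6, 55.5 and 33.4 in fresh cells. Among adhesion genes 5 of 24 were higher and 5 lower, and 2 were lower with a pseudocount of 5. Itgam, Itgb2, Itgal and Itgb7, integrin subunits of leukocytes, were higher, with Itgb7 at 54.5, 46.0 and 66.1 in cultured and 6.44, 10.8 and 6.25 in fresh cells. Robo4 and Esam, adhesion molecules shared by stem cells and endothelium, were lower, with Esam at 0.795, 1.08 and 0.468 in cultured and 11.5, 9.17 and 11.8 in fresh cells.

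The lists of lymphoid priming, erythroid and megakaryocytic genes each had more members lower than higher in culture. Of 20 genes of lymphoid priming and the B lineage, 11 were lower and 1 higher, with a median of -1.79, and 7 were lower with a pseudocount of 5. Dntt, the terminal transferase of lymphoid progenitors, had 0.0177, 0.106 and 0 scaled FPKM in cultured and 117, 218 and 65.3 in fresh cells. Jchain had 0, 0.102 and 0.0564 in cultured and 32.5, 109 and 45.9 in fresh cells. Fresh replicate 2 was the highest library for both, and cultured cells were close to 0 in all 3. Flt3, the receptor through which lymphoid progenitors are supported, had 14.3, 13.1 and 16.3 in cultured and 69.7, 79.5 and 58.3 in fresh cells. Satb1, a chromatin organizer of lymphoid fate, differed by -2.70 ± 0.18, Ly6d by -3.01 ± 0.33 and Lax1 by -2.47 ± 0.08. Cd79a, a B cell receptor subunit, was at 0, 0 and 0.0902 in cultured and at 3.44, 5.37 and 5.47 in fresh cells. In the T and NK cell list 3 of 9 were lower and 0 higher. Gata3, Nkg7 and Cd4 were the 3, and Cd4 was at means of 0.00421 in cultured and 2.22 in fresh cells.

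In the erythroid list 12 of 19 were lower and 1 higher, with a median of -2.11, and 6 were lower with a pseudocount of 5. Car1, a carbonic anhydrase of red cell precursors, had 0.0316, 0.167 and 0.180 scaled FPKM in cultured and 47.7, 90.8 and 69.5 in fresh cells. Car2, an enzyme of the same family, had 13.6, 12.8 and 12.01 in cultured and 249, 252 and 277 in fresh cells. Hba-a1, an alpha globin gene that shares reads with its near-identical copy Hba-a2, was at 0.0701, 0.0464 and 0.0751 in cultured and at 18.5, 8.37 and 13.9 in fresh cells. In the megakaryocyte and platelet list 8 of 19 were lower and 2 higher, with a median of -1.10. The 2 higher were Ppbp, at means of 16.8 in cultured and 2.60 in fresh cells, and Cd9, at 77.7 and 22.8. Pf4, a platelet chemokine, was not called, at 69.2 and 35.9. Ppbp, Cd9 and Pf4 were chosen after their values were seen. The urea transporter Slc14a1 differed by -4.01 ± 0.12, Pdzk1ip1 by -3.81 ± 0.14 and Gp9, part of the complex by which platelets bind von Willebrand factor, by -2.84 ± 0.26. Gata2, a factor of stem cells, megakaryocytes and mast cells, had 13.2, 13.7 and 11.6 in cultured and 50.6, 53.1 and 59.96 in fresh cells.

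The mast cell and basophil list had 2 of 19 higher and 4 lower, against 13.7% and 11.4% over all tested names. Only 2 were lower with a pseudocount of 5. The list median of -0.16 turns positive, at 0.12, under quantile normalization. Mcpt8, a basophil protease, was 1 of the 2 higher members, at 49.9, 54.7 and 43.2 scaled FPKM in cultured and 5.81, 11.2 and 5.61 in fresh cells. In the dendritic cell list 2 of 15 were higher, a share near the 13.7% over all tested names, and 5 lower. The 5 lower ones were Ly6d, Runx2, Flt3, Clec9a and Xcr1. With a pseudocount of 5 only 3 were lower, and at a mean of at least 5 only 2. Clec9a was at means of 0.0366 in cultured and 3.30 in fresh cells. Xcr1, chosen after its values were seen, was at 0.293 and 3.04. The 2 higher ones were Ccr7 and Id2. Id2, an inhibitor of E proteins needed for dendritic and innate lymphoid cells, had 85.1, 73.4 and 105 in cultured and 6.25, 8.58 and 4.01 in fresh cells. Of the stroma and endothelium markers only 6 passed the filter, with 1 higher and 2 lower, and the list summed to between 0.00740 and 0.00802% of scaled FPKM in cultured and between 0.00711 and 0.00733% in fresh libraries.

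Genes induced by interferon were lower in culture. Of 41 tested members, 28 were lower and 2 higher, with a median of -1.72, and 15 were lower with a pseudocount of 5. Oasl2, an antiviral protein of the oligoadenylate synthetase family, had 1.93, 1.80 and 2.01 scaled FPKM in cultured and 47.5, 67.7 and 47.8 in fresh cells. Ifi44 had 0.389, 0.266 and 0.323 in cultured and 24.2, 40.5 and 26.1 in fresh cells, and Rsad2 (viperin) had 0.423, 0.305 and 0.340 in cultured and 9.96, 25.1 and 11.4 in fresh cells. Every fresh library lay above every cultured one, and fresh replicate 2 was the highest. Rtp4 differed by -4.12 ± 0.25, the GTPase Iigp1 by -4.02 ± 0.22 and Ifit1 by -3.26 ± 0.28. The 2 higher members were Ly6a, the sort marker, and Ifitm1, a membrane protein that blocks viral entry, at 2328, 2383 and 2667 in cultured and 476, 371 and 401 in fresh cells. The list summed to between 0.779 and 0.866% of scaled FPKM in cultured and between 0.553 and 0.650% in fresh libraries, the opposite direction to its median. Ifitm1 was chosen after its values were seen.

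Of 18 class I genes of antigen presentation, 7 were lower and 0 higher, with a median of -0.62, and 4 were lower with a pseudocount of 5. B2m, the shared light chain, had 856, 799 and 916 scaled FPKM in cultured and 3620, 4624 and 4496 in fresh cells, and Psmb9, an immunoproteasome subunit, had 57.1, 65.3 and 69.7 in cultured and 249, 345 and 276 in fresh cells. Reads of the class I heavy chain genes can be shared among near-identical copies, so H2-Q6, H2-T24, H2-T10 and H2-T23, all lower, are uncertain one by one. Of 11 class II genes 3 were higher and 1 lower, and in irradiated mice 1 was higher and 1 lower. Ciita, the master regulator of class II, had 7.66, 5.24 and 9.52 in cultured and 1.05, 0.981 and 1.21 in fresh cells, and H2-Eb1 had 73.3, 56.9 and 107 in cultured and 11.97, 25.7 and 15.7 in fresh cells. H2-Ob, part of the inhibitor of peptide loading in B cells, differed by -2.35 ± 0.24.

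Receptors of the cytokines supplied did not share 1 direction. Of 29 cytokine and growth factor receptors, 8 were higher and 6 lower. Only 3 were lower with a pseudocount of 5 or a mean of at least 5. The list median of 0.12 is negative, at -0.19, with the upper quartile. Kit and Flt3, which bind stem cell factor and Flt3 ligand, were lower. Il6ra averaged 23.01 ± 2.25 in cultured and 14.1 ± 2.87 in fresh cells, Il6st 27.8 ± 3.17 and 13.4 ± 0.811, and Il11ra1 4.75 ± 0.292 and 10.5 ± 0.717 (SD, n = 3 each), none of them called and all 3 chosen after their values were seen. Csf2rb, the common chain of the GM-CSF, IL-3 and IL-5 receptors, had 172, 148 and 178 scaled FPKM in cultured and 18.2, 16.7 and 11.6 in fresh cells. Csf2rb2, its close mouse paralogue, with which reads may be shared, and Il3ra differed by 3.49 ± 0.23 and 2.15 ± 0.20.

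Genes downstream of the JAK-STAT pathway, which the IL-6 family activates, were higher in 6 of 22 and lower in 1, with a median of 0.73, and higher in 3 with the upper quartile. Socs3, the feedback inhibitor of gp130, had 48.9, 46.0 and 65.1 scaled FPKM in cultured and 4.75, 2.89 and 2.51 in fresh cells. Pim1, a survival kinase, had 140, 149 and 148 in cultured and 54.9, 54.8 and 38.6 in fresh cells. Cish, the inhibitor induced by Stat5, was the lower member, at 2.07, 2.29 and 2.24 in cultured and 8.90, 6.92 and 15.0 in fresh cells. Immediate early genes were higher in 11 of 30 and lower in 1, and higher in 7 with the upper quartile. Jun had 22.6, 20.7 and 33.1 in cultured and 3.70, 3.27 and 3.13 in fresh cells, Junb differed by 3.66 ± 0.19, and Atf3, a stress-induced factor, had 17.8, 15.8 and 23.8 in cultured and 0.0778, 0.377 and 0.0697 in fresh cells. Fos had 8.21, 6.25 and 20.5 in cultured and 1.003, 0.632 and 0.822 in fresh cells. Cultured replicate 3 was the highest library for Socs3, Jun, Fos and Atf3.

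Biosynthetic genes were higher in several pathways. In the amino acid response and tRNA charging list 21 of 29 were higher and 0 lower, with a median of 1.77. Asns, asparagine synthetase, had 79.6, 77.2 and 74.2 scaled FPKM in cultured and 7.24, 7.39 and 10.4 in fresh cells. Mthfd2, a mitochondrial enzyme of one-carbon metabolism, had 64.4, 66.3 and 69.6 in cultured and 5.44, 5.95 and 5.02 in fresh cells. Phgdh, the entry to serine synthesis, had 234, 245 and 240 in cultured and 48.3, 41.7 and 45.1 in fresh cells. The 3 enzymes were separated by far more than the spread inside either group. Chac1 and Trib3, targets of the stress factor Atf4, differed by 2.59 ± 0.14 and 2.42 ± 0.14.

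In the unfolded protein response list 11 of 21 were higher and 0 lower, with a median of 1.29. Calr, the lectin chaperone calreticulin, had 1054, 1059 and 981 scaled FPKM in cultured and 136, 160 and 123 in fresh cells, and Hspa5 (BiP) had 620, 609 and 578 in cultured and 138, 212 and 122 in fresh cells. Hyou1, Pdia6, Edem1 and Manf, which fold or clear proteins in the endoplasmic reticulum, differed by between 1.91 and 2.39. Of 20 heat shock and chaperone genes 4 were higher and 0 lower, with the chaperonin subunit Cct3 at 238, 254 and 239 in cultured and 62.4, 60.7 and 57.5 in fresh cells.

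In the cholesterol list 14 of 22 were higher and 0 lower, with a median of 1.37, and 9 were higher with the upper quartile or a pseudocount of 5. Fdps, which makes farnesyl diphosphate, had 120, 123 and 121 scaled FPKM in cultured and 12.6, 9.89 and 9.09 in fresh cells. Msmo1, a sterol oxidase, differed by 2.41 ± 0.10, and Mvd, which makes isopentenyl diphosphate, by 2.73 ± 0.13. Fatty acid synthesis was higher in 6 of 15 and lower in 0, with a median of 1.01, and Scd2, a desaturase, had 212, 204 and 194 in cultured and 49.9, 38.4 and 44.5 in fresh cells.

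Ribosome biogenesis and ribosomal proteins did not go together. Of 35 ribosome biogenesis genes and Myc targets, 16 were higher and 1 lower, with a median of 1.11, and the lower one was Mycn itself. Npm3, a nucleolar histone chaperone, had 78.3, 88.5 and 88.5 scaled FPKM in cultured and 7.26, 8.85 and 6.70 in fresh cells. Bop1, which processes the large subunit RNA, had 55.1, 60.9 and 57.5 in cultured and 12.7, 10.4 and 9.93 in fresh cells. Among the cytosolic ribosomal proteins 0 of 32 were higher and 2 lower, with a median of -0.18. They were Rpl37, at 217, 264 and 271 in cultured and 619, 783 and 717 in fresh cells, and Rpl30, at 441, 496 and 525 in cultured and 1132, 1352 and 1341 in fresh cells. Reads of ribosomal protein genes can be shared with their many processed pseudogenes.

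Iron and heme genes were higher in 6 of 18 and lower in 0, with a median of 0.74. Alas1, the first enzyme of heme synthesis, had 198, 192 and 178 scaled FPKM in cultured and 9.56, 13.5 and 8.79 in fresh cells, and Tfrc, the transferrin receptor, had 91.7, 86.0 and 80.7 in cultured and 17.9, 14.5 and 14.2 in fresh cells. In the antioxidant list 12 of 28 were higher and 2 lower, with a median of 0.93. Hmox1, heme oxygenase, had 62.7, 57.1 and 75.9 in cultured and 8.31, 9.72 and 9.15 in fresh cells. The glutathione transferases Gsta4 and Gstm5 were the 2 lower members, and Gsta4 had 0.946, 0.991 and 1.10 in cultured and 14.8, 14.5 and 17.4 in fresh cells.

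Notch signalling restrains the differentiation of cultured progenitors when a ligand is added, and the cultures described here had no DL1. Of 22 tested Notch receptors and targets 3 were higher and 2 lower, shares near the 13.7% and 11.4% over all tested names. The list had a median of 0.53, and 1 was higher under equal totals, the upper quartile and quantile normalization. Notch1 averaged 13.03 ± 0.701 scaled FPKM in cultured and 9.95 ± 0.761 in fresh cells (SD, n = 3 each) and was not called, and the target Hes1, at means of 0.640 in cultured and 0.629 in fresh cells, did not pass the filter. Maml2, a coactivator, was at 0.204, 0.167 and 0.201 in cultured and at 6.85, 7.14 and 9.32 in fresh cells. Dtx4, an E3 ligase of the pathway, was higher, at 17.3, 17.0 and 15.4 in cultured and 1.70, 2.87 and 1.32 in fresh cells. In the DNA methylation and Polycomb list 3 of 24 were higher, a share near the 13.7% over all tested names, and 1 was lower, and 1 was higher under equal totals, the upper quartile and quantile normalization. The lower one was Tet1, which oxidizes methylcytosine, at 0.922, 1.04 and 0.723 in cultured and 14.2, 13.4 and 15.3 in fresh cells.

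Common reference genes were not level between the groups. Of 14 housekeeping genes 6 were higher and 1 lower. Gapdh had 2265, 2338 and 2380 scaled FPKM in cultured and 561, 553 and 561 in fresh cells, and B2m, the lower one, is described with class I. Metallothioneins, small metal-binding proteins on the glucocorticoid list, were among the genes with large differences, with Mt1 at 560, 596 and 571 in cultured and 19.01, 25.5 and 15.6 in fresh cells. Tsc22d3 (GILZ), a direct target of the glucocorticoid receptor, lay the other way, at 14.9, 13.1 and 14.5 in cultured and 106, 149 and 160 in fresh cells. In that list 6 of 19 were higher and 5 lower. Only 3 were lower with a pseudocount of 5 or a mean of at least 5. Of 16 clock genes 3 were higher and 4 lower, and either of these settings left 2 lower. Nfil3 was at 31.5, 30.4 and 34.3 in cultured and 1.78, 1.87 and 1.52 in fresh cells. Per1 was at 7.23, 6.75 and 7.69 in cultured and 28.3, 28.2 and 35.5 in fresh cells.

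The contrast was repeated in the libraries of irradiated mice, which share no library with the controls but come from the same 2 tables. Of 12602 names tested, 1596 were higher in irradiated cultured cells (12.7%) and 1331 lower (10.6%). Both contrasts called 1337 names higher, which is 77.3% of the control calls and 83.8% of the irradiated calls. Both called 1146 names lower, or 80.0% and 86.1%. No name called in controls was called the other way or had the opposite sign in irradiated mice, 0 of 1730 and 0 of 1433. The glycolysis median was 2.45 in irradiated and 2.26 in control mice. For interferon response it was -1.46 with 19 lower in irradiated mice, against -1.72 with 28 lower in control mice. Fewer cell cycle and ribosome biogenesis genes were called in irradiated mice. In the mitosis and spindle list 7 were higher with a median of 0.45 in irradiated mice, against 13 and 0.93 in control mice. In the DNA replication list 4 were higher with a median of 0.43, against 8 and 0.72 in control mice, and in the ribosome biogenesis list 8 with a median of 0.85, against 16 and 1.11 in control mice. For monocyte and macrophage genes the median was 3.18 in irradiated mice, with 29 members higher and 2 lower, against 2.08 in control mice. For late neutrophil granule genes it was -0.36 with 4 lower, against -2.02 in control mice. Jun and Fos were not called in irradiated mice, where they differed by 1.01 and 1.42, against 2.57 and 2.64 in control mice. None of these differences between irradiated and control mice was tested.

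**Figure D4:**
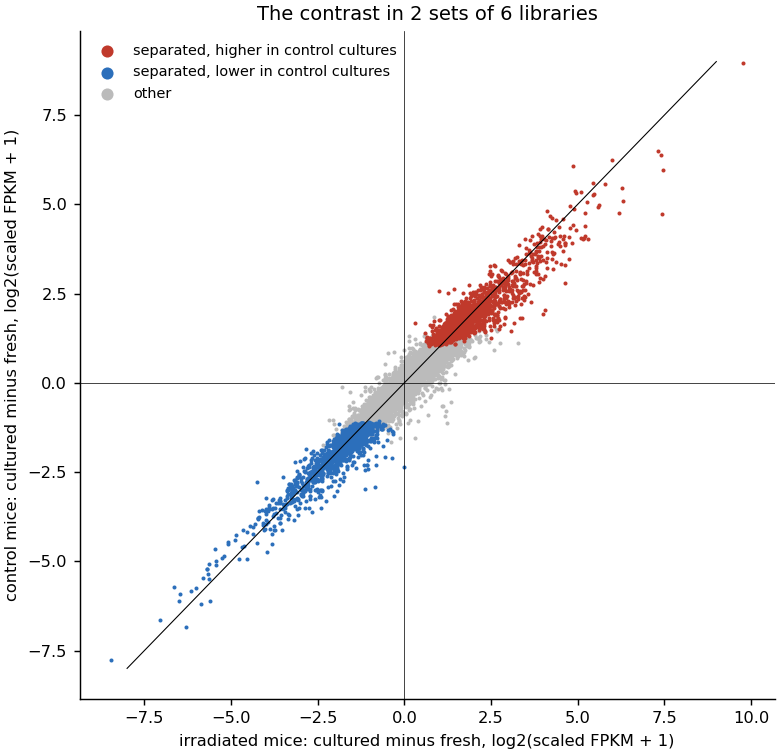
Difference in log2(scaled FPKM + 1), cultured minus fresh, in control mice (vertical axis) and in irradiated mice (horizontal axis), 1 point a name tested in controls. Red points are called higher and blue points lower in control mice, and the line marks equal differences. All coloured points have the same sign in both.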

How the data were processed

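The authors deposited 1 table of FPKM values for cultured and 1 for fresh libraries, each with 25629 rows. Per the submitters' processing notes the tools were TopHat 1.4.1, Cufflinks 1.3.0 and Cuffdiff, and the only genome named is human hg19, for mouse samples. The build applied, annotation and filters are not given in the sources used here. Per the labels' protocols, miRNeasy kits gave total RNA and TruSeq RNA v2 reagents the libraries. Each column was assigned through the sample titles, and 0 were left unmapped.

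Of the rows, 515 with names of ribosomal or small RNA and 24 with names like dates were dropped. Of 25064 names used, 89.0% matched a mouse symbol of RefSeq GRCm38.p6, used for names and promoters only. FPKM carry no counts, so absolute depth is unknown, no interval can be given, and relative depth was read from the steps between low values. Samples were grouped by title and condition. The separation rule was used without a test. Alternatives were the scaling, the pseudocount (0.1 or 5), the filter (none or 5), the gap (any or 4 times), repeated names, kept ribosomal names, ranks and each library left out. The 49 gene lists hold 1194 entries, 1160 of them matched, and the mitochondrially encoded list had 0 tested members.

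Named were the 12 called genes with the highest and the 12 with the lowest differences, leaving out names of the form LOC or GM with a number, RIK names and names at 0 in a whole group, up to 6 members of each list with the largest absolute difference, 25 fixed genes, and the 3 highest of the names at 0 in 1 group. Some genes that the rule names are not reported here. The members, lists and rules were chosen with earlier results of these data known. Python 3.11.15, pandas 2.3.3 and numpy 2.4.6 were used. Per the labels, each culture came from 1 mouse and each fresh pool from 3, and whether samples shared a mouse is not stated, so the spread between them may be partly technical.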

Additional observations from a re-analysis of the deposited data

How the results depend on the processing

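The choice of gap, pseudocount, filter and scaling moved the counts, and the cause was not tested beyond what each choice does by construction. With any gap, 5948 names were higher and 4721 lower in control cultures, 5731 and 4566 in irradiated cultures, and 5279 and 4113 in both. In the same order, the counts with a gap of 4 times were 344 and 359, 384 and 339, and 282 and 288. With a pseudocount of 5 they were 1101 and 603, 1001 and 567, and 826 and 497. With the upper quartile they were 1077 and 2121, 960 and 2106, and 791 and 1763. With a mean of at least 5 the lower counts were 827, 781 and 673. With each library left out in turn, the control counts ran between 1773 and 1913 higher and between 1441 and 1524 lower, the irradiated counts between 1648 and 1789 and between 1342 and 1440, and the shared counts between 1392 and 1472 and between 1159 and 1229. Lists with a median of 1 or more numbered between 9 and 11, and lists with a median of -1 or less between 11 and 13, with a library left out, and the lower ones 4 with a pseudocount of 5. The median over all tested names was 0.02 under equal totals, 0.02 under quantile normalization, 0.10 as deposited and -0.18 with the upper quartile. The stroma and endothelium median turned to 0.79 at a mean of at least 5, where fewer members are tested. The list medians of the C/EBP family, DNA methylation and Polycomb, adhesion, cytokine receptors and mast cells changed sign with the scaling. Of 946 values for 54 named genes, 919 stayed on the same side of the rule, 20 lost a call, 7 gained one and 0 turned round. No paired analysis was possible because the result comes from no test and cultured and fresh libraries of the same number are not said to share a mouse. FPKM without counts limit what can be said of genes near 0.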
